A study of Mus musculus with 24 samples.

Results

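Osr1, Osr2, Shox2, Sim2 and Tbx22 are 5 transcription factor genes of the mesenchyme from which the palate grows. They were taken by name, 5 of the 26611 genes with an identifier in the count table, and all 5 were among the 14506 genes with enough counts to be tested. The members were chosen by name with measured values of the same libraries known, in which Osr1 and Osr2 were lower in Kat6a homozygous embryos. Their values in that comparison are therefore given as a description, without a test. Which values led to the choice is not stated. The other comparisons use libraries of the same series, so their tests of the members may not be independent of the choice either.

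The secondary palate, the roof of the mouth, grows as shelves from the maxillary part of the first pharyngeal arch, whose mesenchyme comes mostly from the cranial neural crest. Shelf mesenchyme divides, lifts above the tongue and fuses at the midline, and loss of any of several transcription factors active there leaves a cleft. Osr1 and Osr2 encode paralogous zinc finger factors named after the odd-skipped gene of the fly, and Osr2 is required for growth of the shelves. Shox2, a homeodomain factor, acts in the anterior palate and also in the limb, the sinoatrial node and some neurons. Sim2, a basic helix-loop-helix PAS factor, and Tbx22, a T-box repressor whose mutation causes X-linked cleft palate in people, both act in palate formation. The tissue studied here precedes the shelves, so the levels are those of the arches.

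RNA-seq was made from the first and second pharyngeal arches of female mouse embryos at E10.5 on a C57BL/6 background, in 24 libraries that form 6 genotype groups of 4 biological replicates. The groups were labelled wild type for both genes, Kat6a heterozygous, Dlx5 heterozygous, double heterozygous (1 knockout allele of Kat6a and 1 of Dlx5), and homozygous for the knockout of either Dlx5 or Kat6a. Kat6a (Moz) encodes a histone acetyltransferase and Dlx5 a homeodomain factor of the lower part of the arches, and the series asked what loss of either or both does in craniofacial development. Embryos came from 2 mouse facilities, labelled as batches. Batch 2 held every library of the wild type and Kat6a homozygous groups and batch 1 every Dlx5 homozygous library, whereas each remaining group had libraries of both. The labels do not say whether a library is 1 embryo or a pool, nor how the alleles were made.

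Totals ran from 10406452 to 28198111 counts per library. Markers of arch mesenchyme were abundant in every group, led by the homeobox gene Prrx1 with a mean of 819 CPM, where CPM gives the counts of a gene relative to the TMM-scaled total of its library. Each mutated gene overlapped wild type in the libraries labelled homozygous for its own knockout. Kat6a stood at 228 ± 14.6 CPM (SD, n = 4) in libraries labelled Kat6a homozygous against 202 ± 40.7 CPM (SD, n = 4) in wild type, and Dlx5 at 62.6 ± 5.11 CPM (SD, n = 4) in libraries labelled Dlx5 homozygous against 69.4 ± 6.78 CPM (SD, n = 4) in wild type. Counts over a whole gene do not show which part an allele lacks, so genotypes are those of the labels throughout. Dlx5 did set apart the libraries labelled Kat6a homozygous, at 34.5 to 42.4 CPM against 64.6 to 79.0 CPM in wild type and at least 54.6 CPM in every other library, and it fell there by 0.87 on the log2 scale (SE 0.08, adjusted p = 1.46e-07, edgeR). In 4 libraries, replicate 2 of the wild type, Kat6a heterozygous, Dlx5 heterozygous and Kat6a homozygous groups, 19 markers of neurons and glia summed to 474 to 743 CPM, above the rest of their own groups.

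Osr1 and Osr2 come from one ancestral gene, and a stretch of their zinc finger coding sequence is shown because it is where reads of one could be taken for the other. The stretches are 120 bases of coding sequence read across an intron in each gene, from the GENCODE transcripts of GRCm38, with the bases that differ in capitals. That of Osr1 lies in exons 2 and 3 at chr12:9579735-9580550 on the plus strand, and that of Osr2 in exons 1 and 2 at chr15:35300897-35301972 on the plus strand.
Osr1: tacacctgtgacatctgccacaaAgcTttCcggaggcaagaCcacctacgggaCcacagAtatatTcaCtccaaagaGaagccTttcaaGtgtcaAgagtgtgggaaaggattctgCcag
Osr2: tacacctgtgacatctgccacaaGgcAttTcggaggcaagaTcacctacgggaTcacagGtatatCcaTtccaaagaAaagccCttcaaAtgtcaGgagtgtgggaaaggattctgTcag
Of the 120 bases 107 were identical (89.2%), and all 13 differences fell on the last base of a codon. The longest run shared by the 2 transcripts was 23 bases, so a read longer than that holds at least 1 difference. The sources used here do not give the read length.

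Osr1 (Entrez gene 23967, GRCm38 chr12:9574442-9581500) was the most abundant of the 5 genes per length. Its mean level in wild type was 6.94 CPM per kilobase of counted exon, against 2.02 for Osr2, 1.96 for Sim2, 1.70 for Tbx22 and 1.46 for Shox2. In wild type replicates 1 to 4, Osr1 stood at 10.3, 17.6, 15.7 and 12.4 CPM. In libraries labelled Kat6a homozygous it stood at 7.02, 3.39, 9.82 and 4.05 CPM. Every one of these lay below the lowest wild type library, and the mean of 6.07 ± 2.96 CPM (SD, n = 4) was 43.5% of the wild type mean of 13.97 ± 3.28 CPM (SD, n = 4). Since the libraries are of bulk tissue, fewer cells of a type and less RNA per cell cannot be told apart.

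In the other mutant groups Osr1 overlapped the wild type range. It stood at 11.9, 15.2, 18.1 and 12.3 CPM in Kat6a heterozygous, at 14.7, 20.3, 19.4 and 13.6 CPM in Dlx5 heterozygous and at 23.6, 18.2, 14.8 and 14.7 CPM in double heterozygous libraries. In libraries labelled Dlx5 homozygous it stood at 12.5, 15.5, 10.2 and 12.1 CPM. By group mean the order ran from double heterozygous (17.8 CPM) through Dlx5 heterozygous (17.0), Kat6a heterozygous (14.4), wild type (13.97) and Dlx5 homozygous (12.5) to Kat6a homozygous (6.07). Only the last step separated neighbouring groups, and all other neighbours overlapped. In the GENCODE annotation the start of the Osr1 locus overlaps the antisense gene 1700022H16Rik over 470 bases, at chr12:9570116-9570585. That stretch lies outside the span of Entrez gene 23967 given above, which starts at 9574442. The sources used here do not say which annotation was counted or whether reads were counted by strand.

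Osr2 (Entrez gene 107587, GRCm38 chr15:35296098-35303305) was scarcer, and its level in libraries labelled Kat6a homozygous was the lowest of the 5 relative to wild type. Wild type replicates 1 to 4 held 2.69, 4.34, 3.11 and 3.70 CPM, from 36 to 75 reads. Libraries labelled Kat6a homozygous held 1.43, 0.678, 0.947 and 1.06 CPM, from 8 to 19 reads. Again none reached the lowest wild type library, and the mean of 1.03 ± 0.313 CPM (SD, n = 4) was 0.297 times the wild type mean of 3.46 ± 0.716 CPM (SD, n = 4).

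Osr2 in the libraries labelled Dlx5 homozygous was also at the low end, at 2.09, 3.18, 0.990 and 1.53 CPM, and overlapped both wild type and Kat6a homozygous libraries. It stood at 1.92, 5.14, 4.34 and 2.75 CPM in Kat6a heterozygous, at 4.75, 3.74, 5.34 and 2.75 CPM in Dlx5 heterozygous and at 4.56, 3.21, 3.47 and 2.24 CPM in double heterozygous libraries. No neighbouring groups in the order of means were separate, from Dlx5 heterozygous at 4.14 ± 1.14 CPM (SD, n = 4) down to Kat6a homozygous. The count of Osr2 per count of Osr1 averaged 0.252 ± 0.0416 (SD, n = 4) in wild type, 0.189 ± 0.0347 (SD, n = 4) in double heterozygous, 0.190 ± 0.0685 (SD, n = 4) in Kat6a homozygous and 0.149 ± 0.0472 (SD, n = 4) in Dlx5 homozygous libraries. In Kat6a and Dlx5 heterozygous libraries it averaged 0.241 and 0.246. The ratios of every mutant group overlapped those of wild type, from 0.199 to 0.299, and the Dlx5 homozygous ratios, from 0.0976 to 0.206, did so narrowly.

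Sim2 (Entrez gene 20465, GRCm38 chr16:94085104-94127032) followed Osr1 closely from library to library. Wild type replicates 1 to 4 held 6.17, 8.998, 7.18 and 6.48 CPM. Libraries labelled Kat6a homozygous held 5.81, 2.20, 4.91 and 3.17 CPM. They all lay below wild type, replicate 1 narrowly, and their mean of 4.02 ± 1.63 CPM (SD, n = 4) was 55.9% of the wild type mean of 7.21 ± 1.27 CPM (SD, n = 4).

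Sim2 was highest in libraries with knockout alleles in the heterozygous state. It stood at 8.56, 12.8, 15.0 and 8.90 CPM in Dlx5 heterozygous, at 15.9, 9.64, 7.79 and 11.3 CPM in double heterozygous and at 7.52, 12.3, 13.0 and 5.77 CPM in Kat6a heterozygous libraries. Libraries labelled Dlx5 homozygous held 5.52, 9.11, 4.79 and 8.14 CPM. Each of these 4 groups overlapped wild type, and no neighbours in the order of means, from Dlx5 heterozygous at 11.3 ± 3.13 CPM (SD, n = 4) to Kat6a homozygous, were separate.

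Tbx22 (Entrez gene 245572, GRCm38 chrX:107667964-107688980) was the member whose libraries labelled Dlx5 homozygous all lay below wild type. Wild type replicates 1 to 4 held 7.03, 8.75, 10.03 and 9.93 CPM. Libraries labelled Dlx5 homozygous held 6.61, 4.38, 4.46 and 3.95 CPM. The highest of them lay just below the lowest wild type library, and their mean was 4.85 ± 1.19 CPM (SD, n = 4) against 8.93 ± 1.40 CPM (SD, n = 4). These groups share no batch. Among libraries labelled Kat6a homozygous, Tbx22 stood at 8.45, 2.29, 7.92 and 8.11 CPM, so 3 lay inside the wild type range and replicate 2 far below it.

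In the remaining groups Tbx22 overlapped the wild type range. It stood at 7.35, 12.7, 11.98 and 6.93 CPM in Kat6a heterozygous, at 9.21, 9.89, 13.8 and 10.1 CPM in Dlx5 heterozygous and at 10.1, 10.7, 8.97 and 8.11 CPM in double heterozygous libraries. No neighbours in the order of means, from Dlx5 heterozygous at 10.7 ± 2.07 CPM (SD, n = 4) to Dlx5 homozygous, were separate.

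Shox2 (Entrez gene 20429, GRCm38 chr3:66971723-66981771) was the scarcest and most uneven member. Wild type replicates 1 to 4 held 1.15, 5.15, 1.82 and 1.18 CPM, from 14 to 63 reads. Double heterozygous libraries held 4.56, 2.69, 4.40 and 4.88 CPM. They lay above 3 of the wild type libraries and below replicate 2, so the groups overlapped, with means of 4.14 ± 0.982 CPM and 2.32 ± 1.91 CPM (SD, n = 4 each).

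The homozygous groups stood at the low end for Shox2. Libraries labelled Dlx5 homozygous held 0.669, 1.37, 1.16 and 1.05 CPM and those labelled Kat6a homozygous 0.453, 2.12, 1.21 and 1.15 CPM, both overlapping wild type. Kat6a heterozygous libraries held 1.05, 4.75, 2.86 and 1.69 CPM and Dlx5 heterozygous libraries 2.33, 4.28, 2.67 and 2.81 CPM. No neighbouring groups in the order of means were separate. In the GENCODE annotation Shox2 overlaps the antisense gene Rsrc1 over 382 bases.

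**Figure D1:**
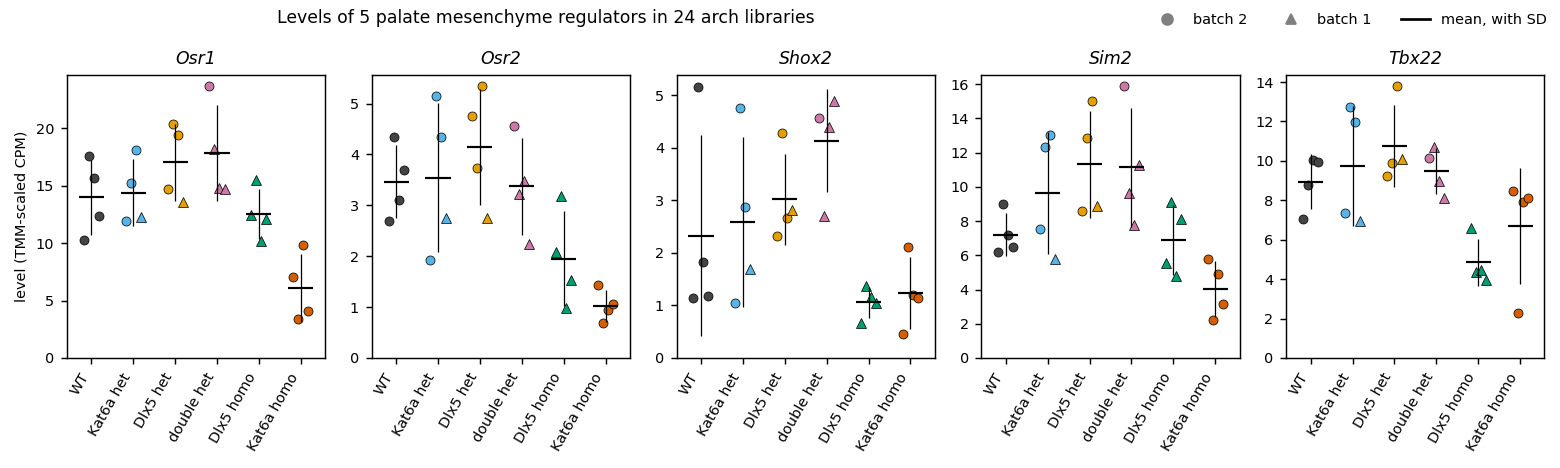
Level of each gene in TMM-scaled CPM (vertical axis) in 24 libraries by labelled genotype, with circles for batch 2, triangles for batch 1, and lines for the group mean and SD. All Kat6a homozygous points lie below all wild type points for Osr1, Osr2 and Sim2, and all Dlx5 homozygous points do so for Tbx22.

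The first comparison asked how the 5 genes stood in arches labelled Kat6a homozygous. Their fitted levels were lower in 5 of 5, with log2 differences from wild type of -1.71 (SE 0.32) for Osr2, -1.18 (SE 0.24) for Osr1, -0.87 (SE 0.51) for Shox2, -0.82 (SE 0.27) for Sim2 and -0.40 (SE 0.27) for Tbx22. Osr1, Osr2 and Sim2, 3 of the 5, had all 4 libraries below all 4 of wild type, a pattern shown by 3.54% of all tested genes. In the same fit 1.53% of all tested genes were called, 1.06% as lower, at an adjusted p under 0.05 (edgeR, Benjamini-Hochberg). Nothing is read from these shares, since this comparison helped to choose the genes. Both groups lie in batch 2, and a fit on batch 2 alone gave -1.72 for Osr2, -1.19 for Osr1 and -0.83 for Sim2.

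Leaving out the 4 libraries rich in neuron markers brought these differences to -1.42 for Osr2, -0.85 for Osr1, -0.50 for Sim2, -0.54 for Shox2 and -0.11 for Tbx22. Shox2 depended on a single library in either group, with -0.15 without wild type replicate 2 and -1.28 without Kat6a homozygous replicate 2. With a score of the neuron and glia markers as a covariate Shox2 stood at -0.74 (SE 0.28), against -0.87 (SE 0.51) in the main fit. Tbx22 rested on replicate 2 of the Kat6a homozygous group, with -0.12 when that library was left out.

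Genes of several marker lists were called in the same comparison. The lists share some genes, so their counts and sums are not independent. Hand2 is in the arch mesenchyme and mandibular lists, Lhx2 in the forebrain and muscle lists, and Barx1 in the maxillary list and the palate list below. Markers of forebrain and midbrain summed to 18.6 to 29.1 CPM in Kat6a homozygous libraries against 42.5 to 51.9 CPM in wild type, and 3 of the 7 tested fell. The most abundant of them was Emx2, a homeobox gene, with a mean of 22.8 CPM. Of mandibular markers 3 of 10 fell (252 to 283 CPM summed, against 301 to 390), of maxillary and dorsal arch markers 3 of 8 (964 to 1086 against 1059 to 1235) and of arch mesenchyme markers 2 of 12 (1684 to 2030 against 1729 to 2097). Of muscle markers 1 of 9 fell (83.9 to 96.5 against 94.9 to 104), and of macrophage and leukocyte markers 2 of 12 rose (53.2 to 81.2 against 42.9 to 56.9). None of 17 neuron and glia, 4 intermediate mesoderm and heart field, 12 epithelial, 12 endothelial or 11 erythroid markers tested was called. No marker was at 0 in all libraries of either group. The part of these lists in the lower levels of the 5 genes was not tested.

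**Figure D2:**
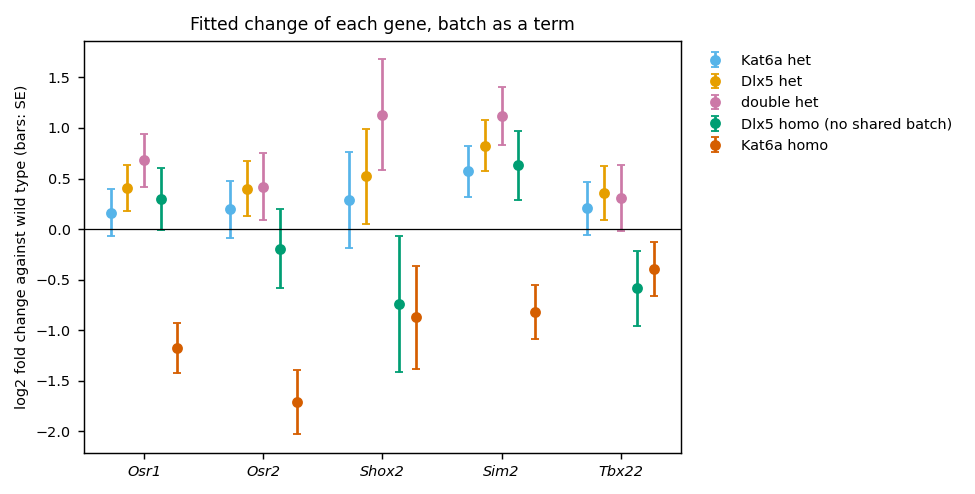
Fitted log2 fold change against wild type (vertical axis) for each gene in the 5 mutant groups, with bars of 1 SE. The Kat6a homozygous points are below 0 for all 5 genes, from -1.71 for Osr2 to -0.40 for Tbx22, and all heterozygous points are above 0.

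The heterozygous comparisons asked whether 1 knockout allele of either gene, or of both, moved these genes. In Kat6a heterozygous arches 0 of 5 were called, where 0% of all genes were. The fitted log2 differences were 0.57 (95% interval 0.04 to 1.10) for Sim2, 0.29 (-0.71 to 1.28) for Shox2, 0.20 (-0.36 to 0.76) for Tbx22, 0.19 (-0.39 to 0.78) for Osr2 and 0.16 (-0.32 to 0.65) for Osr1. The intervals leave room for changes in either direction for all but Sim2, whose adjusted p was 0.392 (edgeR). That of Shox2 was the widest and reached 1.28. At an unadjusted p under 0.05, 1 member and 1648 genes passed, while DESeq2 called 80 genes and gave the members no adjusted p, and limma voom called 0 genes.

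In Dlx5 heterozygous arches 0 of 5 were called, where again 0% of all genes were. Sim2 differed most, by 0.83 (SE 0.25, adjusted p = 0.247, edgeR), with 2 libraries above and 2 within the wild type range. Osr1 and Osr2 each stood at 0.40, with 95% intervals of -0.07 to 0.88 and -0.18 to 0.98. Shox2 stood at 0.52 and Tbx22 at 0.36, with adjusted p of 0.715 and 0.649 (edgeR). At an unadjusted p under 0.05, 1 member and 1645 genes passed. DESeq2 called 31 genes and limma voom 0, none of them a member.

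In double heterozygous arches 0 of 5 were called, where 0.448% of all tested genes were. Sim2 stood at 1.12 (SE 0.29, adjusted p = 0.0869, edgeR), Shox2 at 1.13 (SE 0.55, adjusted p = 0.387), Osr1 at 0.68 (SE 0.27, adjusted p = 0.265), Osr2 at 0.42 (SE 0.33, adjusted p = 0.629) and Tbx22 at 0.31 (SE 0.32, adjusted p = 0.716). At an unadjusted p under 0.05, 2 members and 1880 genes passed. DESeq2 called 1 member, Sim2, with an adjusted p of 0.0211, but called 185 genes in all against 65 with edgeR. Without the 4 neuron-rich libraries Sim2 stood at 1.21 and was called (adjusted p = 0.0469, edgeR), in a fit that also called more genes than the main fit. The set of 4 includes wild type replicate 2 and no double heterozygous library. Double heterozygous replicates 3 and 4 were kept, with 467 and 486 CPM of neuron and glia markers summed. The removed Kat6a homozygous replicate 2 held 474 CPM. The Sim2 difference depended on the batch term, since 3 of 4 double heterozygous libraries lay in batch 1. Without the term it was 0.64. Batch 2 holds 1 double heterozygous library, in which Sim2 stood at 15.9 CPM against 6.17 to 8.998 CPM in the wild type libraries of that batch.

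The batch term itself was negative for all 5 genes, from -0.28 for Tbx22 to -0.68 for Sim2 (batch 1 minus batch 2, log2). None was called (Sim2 adjusted p = 0.514, edgeR), where 0.0345% of all tested genes were. At an unadjusted p under 0.05, 3 of the 5 passed, with 0.00647 for Sim2, 0.026 for Osr2 and 0.0479 for Osr1, as did 6.51% of all tested genes.

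The series also asked about both genes together. The non-additive part, by which the double heterozygote departs from the sum of the 2 single heterozygous differences on the log2 scale, was called for 0 of 5, where 0.00689% of all genes were. It ran from -0.28 (SE 0.35) for Sim2 to 0.32 (SE 0.65) for Shox2 on the log2 scale, with adjusted p from 0.935 to 0.969 (edgeR). No member passed an unadjusted p under 0.05 with edgeR, DESeq2 or limma voom. The 95% intervals were wide, from -1.05 to 1.69 for Shox2 and from -0.56 to 0.78 for Osr1.

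In arches labelled Dlx5 homozygous 0 of 5 were called, where 0.0551% of all tested genes were, and no member passed an unadjusted p under 0.05 with edgeR, DESeq2 or limma voom. The fitted log2 differences were -0.74 (SE 0.67) for Shox2, -0.59 (SE 0.37) for Tbx22, -0.20 (SE 0.39) for Osr2, 0.30 (SE 0.31) for Osr1 and 0.63 (SE 0.34) for Sim2. Tbx22 was the 1 member of 5 with all 4 libraries below all 4 of wild type, as were 2.29% of all tested genes. Because these groups share no batch, the fit corrects each value by the batch term, and facility and genotype cannot be told apart in the raw levels. Without the term the values were -1.07 for Shox2, -0.86 for Tbx22, -0.81 for Osr2, -0.14 for Osr1 and -0.05 for Sim2.

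A comparison within batch 1 needs no batch term. It was added after the levels had been seen, and its p-values do not allow for that choice. It set the 4 Dlx5 homozygous libraries against the 3 double heterozygous libraries of that batch, in a fit on 9 libraries. Double heterozygous embryos also carry a knockout allele of Kat6a, so the groups differ at both genes and the Dlx5 part cannot be told apart. Shox2 held 0.669 to 1.37 CPM against 2.69 to 4.88 CPM, and was lower by -1.91 (SE 0.28, adjusted p = 0.00222, edgeR). Tbx22 held 3.95 to 6.61 CPM against 8.11 to 10.7 CPM, and was lower by -0.93 (SE 0.17, adjusted p = 0.0103, edgeR). These 2 of 5 were called, where 0.98% of all tested genes were called lower, and the ranges of these 2 did not overlap, as for 5.88% of all genes. Osr1 (-0.34, adjusted p = 0.367), Osr2 (-0.61, adjusted p = 0.543) and Sim2 (-0.47, adjusted p = 0.475) were not called and overlapped.

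Neuron and glia markers separated the same groups, at 159 to 199 CPM summed in Dlx5 homozygous libraries and 278 to 486 CPM in the 4 double heterozygous libraries. The neuron and glia score ran from -1.31 to -0.82 in Dlx5 homozygous and from 0.54 to 1.49 in double heterozygous libraries. It was thus nearly tied to genotype, and a fit with it can hardly tell score and genotype apart. With the score as a covariate, 0 genes were called in that comparison. Shox2 then stood at 0.04 and Tbx22 at -1.59, each with an adjusted p of 1 (edgeR). The fit across 24 libraries gave values close to those within batch 1, -1.87 for Shox2 and -0.90 for Tbx22, but called neither (adjusted p = 0.437 and 0.601, edgeR). The Tbx22 call was also lost without double heterozygous replicate 3 (adjusted p = 0.0658) or without Dlx5 homozygous replicate 4 (adjusted p = 0.0596).

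Shox2 was highest where neuron and glia markers were highest. In 6 of 6 groups the library with the highest Shox2 was the one with the highest neuron and glia score, against 3 of 6 for Osr1 and for Osr2, 2 of 6 for Sim2 and 1 of 6 for Tbx22. Wild type replicate 2, with 5.15 CPM of Shox2, held 657 CPM of these markers, where the other wild type libraries held 166, 185 and 173 CPM. The 4 double heterozygous libraries held 346, 278, 467 and 486 CPM, and all 17 tested neuron and glia markers had positive fitted differences there, with a median of 1.00 and none called. Beside these values, the double heterozygous difference of Shox2 was 0.55 (adjusted p = 0.462, edgeR) with the score as a covariate, and 1.68 (adjusted p = 0.0182, edgeR) without the 4 neuron-rich libraries, a set that includes wild type replicate 2 and no double heterozygous library. The fit without those 4 libraries also called more genes than the main fit. Without wild type replicate 2 alone, Shox2 stood at 1.012 in Kat6a heterozygous, 1.25 in Dlx5 heterozygous, 1.86 in double heterozygous and -0.02 in Dlx5 homozygous arches, against 0.29, 0.52, 1.13 and -0.74 with it, and was called in none. The part of neuronal tissue in the Shox2 levels was not tested beyond these fits.

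**Figure D3:**
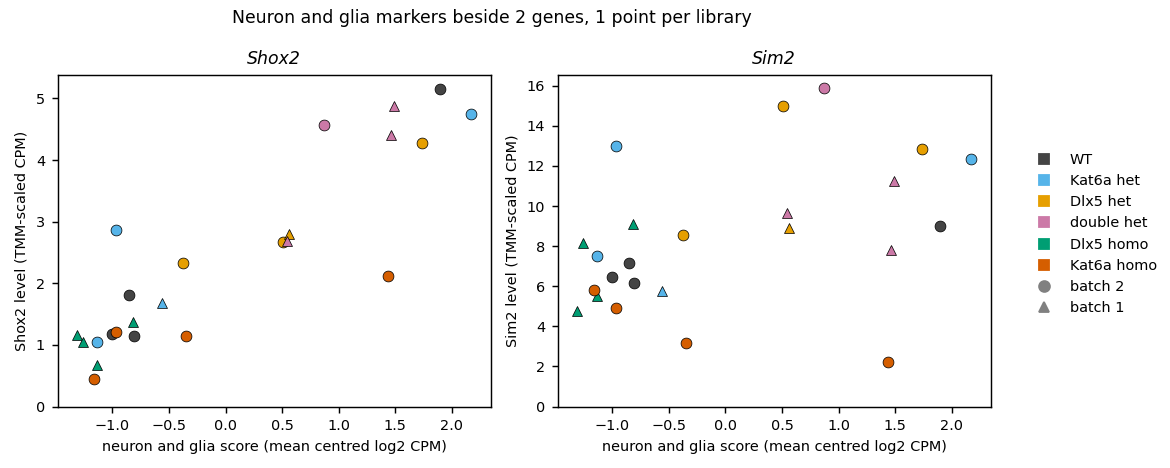
Shox2 and Sim2 levels in TMM-scaled CPM (vertical axes) against the neuron and glia score, the mean centred log2 CPM of those markers (horizontal axis), with 1 point per library, coloured by genotype. Shox2 climbs with the score, from 0.669 to 1.37 CPM in the Dlx5 homozygous libraries at the low end to 5.15 CPM in wild type replicate 2, and Sim2 does not line up with it in the same way.

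Across 24 libraries, with the fitted batch effect removed from log2 CPM, Osr1 correlated with Sim2 at r = 0.94 and with Osr2 at r = 0.86, and these values were 0.79 and 0.52 once group means were taken out. Tbx22 correlated with Osr1, Osr2 and Sim2 at 0.58, 0.68 and 0.58 over all libraries and at 0.58, 0.52 and 0.56 within groups. Shox2 correlated with the same 3 genes at 0.54, 0.59 and 0.57 over all libraries but at 0.11, 0.16 and 0.16 within groups, and with Tbx22 at 0.39 and -0.20. These are descriptions over libraries that share genotype groups and differences in dissection, and Shox2 and Osr2 carry the counting noise of few reads.

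**Figure D4:**
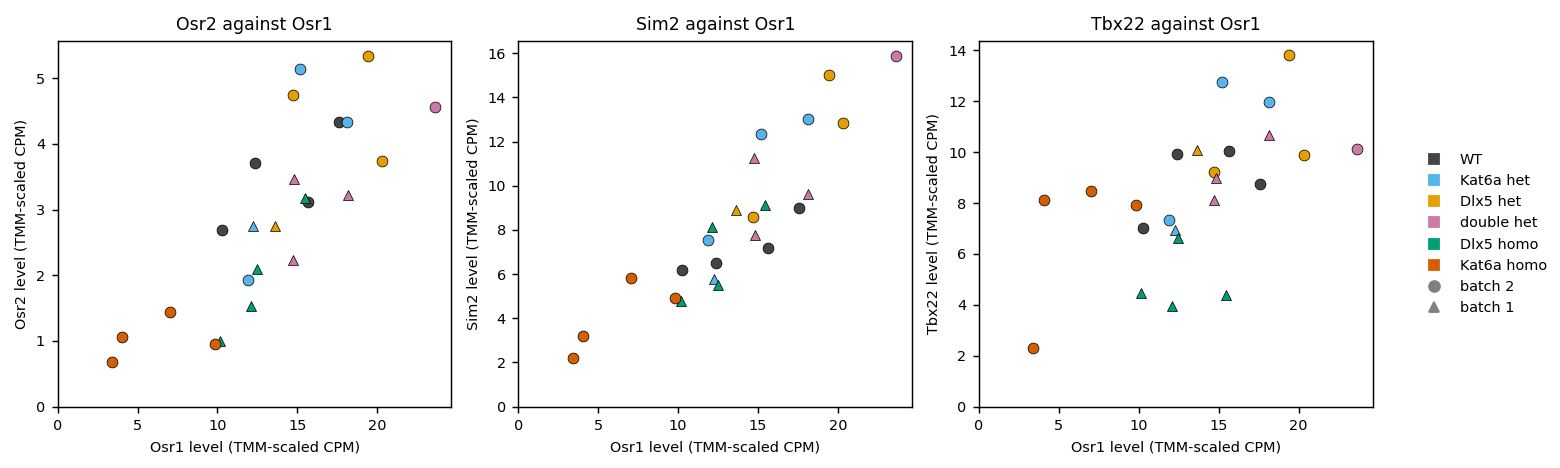
Levels of Osr2, Sim2 and Tbx22 (vertical axes) against Osr1 (horizontal axis), all in TMM-scaled CPM, with 1 point per library, coloured by genotype and shaped by batch. Kat6a homozygous libraries sit at the lower left for Osr2 and Sim2, and Dlx5 homozygous libraries sit low for Tbx22 at wild type levels of Osr1.

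The genes most like each member over the 24 libraries were named by the highest Pearson r among 13693 genes with a mean of at least 1 CPM. For Osr1 they were Smoc2, which encodes a secreted matricellular protein (r = 0.96, 0.81 within groups), 3110099E03Rik (0.94, 0.85 within groups), the homeobox gene Emx2 (0.93, 0.76) and the zinc finger gene Zmat4 (0.92, 0.62). For Sim2 they were 3110099E03Rik, Wfikkn2 and Nap1l2 (0.91 each) and AI606473 (0.90), with 0.65 to 0.80 within groups. Osr1 and Sim2 thus shared 3110099E03Rik. For Osr2 they were Nap1l2 (0.88), Emx2os, Col8a2 and Cpe, which encodes carboxypeptidase E (0.86 each). Within groups these were lower, at 0.66, 0.51, 0.36 and 0.56. Emx2os is named as the antisense partner of Emx2, and without a stated strand setting reads of the pair may be mixed.

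Shox2 had another kind of neighbour. Its 4 were Syn2, which encodes the synaptic vesicle protein synapsin II (0.91), the receptor gene Npr2 (0.89), the brain kinase gene Brsk2 (0.88) and Tubb3, the neuronal tubulin gene (0.88). Their correlations within groups, from 0.84 to 0.88, were nearly as high as those over all libraries. Tbx22 had no close match, with Cyp4v3, a cytochrome P450 gene, at 0.81, Dnm3, a dynamin gene, at 0.80, Pgghg at 0.79 and E130307A14Rik at 0.78, and 0.66 to 0.76 within groups.

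A list of 52 other palate regulators, 51 of them tested, put the members beside the rest of the pathway. In Kat6a homozygous arches 0 rose and 1 fell, where 1.53% of all tested genes were called. The median log2 difference was -0.04 against 0.01 over all tested genes. At an unadjusted p under 0.05 there were 12, or 23.5% of the list, where 13.6% of all tested genes passed (edgeR). The one that fell was Barx1, a homeobox gene of the jaw mesenchyme, from 156 ± 22.1 to 106 ± 10.7 CPM (SD, n = 4 each), by -0.56 (SE 0.12, adjusted p = 0.0218, edgeR). It was not called without the neuron-rich libraries, nor without replicate 2 or 4 of wild type or replicate 2, 3 or 4 of the Kat6a homozygous group. With limma voom, Pdgfra, a growth factor receptor gene of the arch mesenchyme, was called in its place.

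In double heterozygous arches 3 of 51 rose and 0 fell, where 0.448% of all tested genes were called. The median was 0.12 against 0.01 over all tested genes. At an unadjusted p under 0.05 there were 12, or 23.5% of the list, where 13% of all tested genes passed (edgeR). Foxl1, a forkhead gene, rose from 2.76 ± 0.637 to 5.52 ± 1.75 CPM (SD, n = 4 each), by 1.47 (adjusted p = 0.0221, edgeR). Pax9, a paired box gene required for palate and teeth, rose from 8.21 ± 0.523 to 12.8 ± 2.76 CPM (SD, n = 4 each), by 0.84 (adjusted p = 0.0202, edgeR). Foxf2, a forkhead gene of the palate mesenchyme, rose from 21.2 ± 4.55 to 30.6 ± 6.88 CPM (SD, n = 4 each), by 0.76 (adjusted p = 0.0406, edgeR). Only Pax9 was called with the neuron and glia score as a covariate, only Pax9 and Foxl1 with a replicate block, and none without the batch term, in batch 2 alone or in a fit on only the groups that enter the comparison. None of the 3 was called without wild type replicate 4, Kat6a heterozygous replicate 4 or double heterozygous replicate 1, and only Pax9 without double heterozygous replicate 2 or 4.

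None of the 51 was called in the Kat6a heterozygous, Dlx5 heterozygous or Dlx5 homozygous comparisons or for the non-additive part (edgeR). At an unadjusted p under 0.05 there were 11, 6, 16 and 5, or 21.6%, 11.8%, 31.4% and 9.8% of the list, where 11.4%, 11.3%, 9.97% and 5.4% of all tested genes passed. DESeq2 called 1, 1, 0 and 0 of them and limma voom 0 in each. The medians of 0.01, 0.08, 0.13 and 0.08 stood beside 0.01, 0.01, 0.00 and -0.01 over all tested genes. All comparisons with wild type use the same 4 wild type libraries, so their values are not independent of each other.

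**Figure D5:**
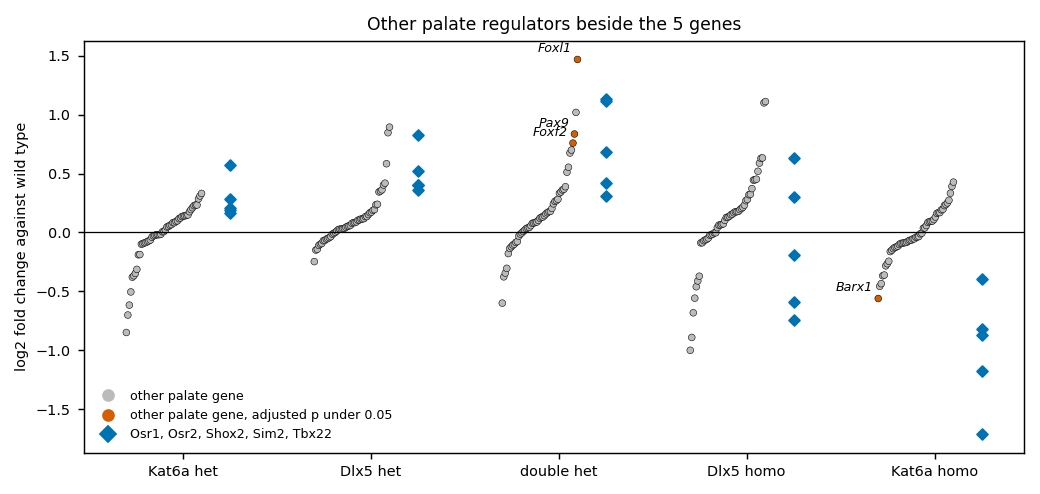
Log2 fold change against wild type (vertical axis) of 51 other palate regulators (circles, those with an adjusted p under 0.05 in orange) beside the 5 genes (diamonds) in each mutant group. In the Kat6a homozygous group the list lies around 0, with a median of -0.04 and Barx1 called at -0.56. Osr2 and Osr1 lie at -1.71 and -1.18. Nothing is read from that contrast, since their lower levels there were known when they were chosen.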

How the data were processed

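Per the labels' protocols, RNA was extracted with a column kit and turned into indexed, stranded mRNA libraries. The submitters' processing notes name CASAVA 1.8.2, featureCounts and the build mm10. The sources used here do not give the aligner, the annotation, the strand setting or the read length. Values are counts that the authors deposited per gene without normalization, under Entrez identifiers and, per the file headers, with a gene length, which served only for levels per kilobase. Of 27179 entries 568 lacked an identifier (0.182% to 0.259% of a library's counts) and were dropped. Of 26611 identifiers 25275 matched a symbol in the RefSeq table of GRCm38.p6.

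Counts were tested with edgeR 4.0.16 in R 4.3.3 on 24 libraries. The filter filterByExpr kept 14506 genes, TMM scaled them, and robust quasi-likelihood fitted 6 group means plus batch. A gene was called when its p, adjusted by Benjamini and Hochberg across the tested genes, was under 0.05. Standard errors follow from the test statistic, and log2 CPM carry a prior count of 2. The precision of single values is limited by 4 libraries per group and, for Osr2 and Shox2, by few reads. Replicates of a group differed beyond sampling noise (chi-square per degree of freedom 3.04 to 23.9), so each library counts once. The procedure was also run on simulated counts with changes planted in the Kat6a homozygous group only. These held no batch effect and no neuron-rich libraries, so the run does not bear on either.

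Groups, replicate numbers and batches are those of the labels. The members and lists were chosen with earlier results of these data known. Named genes are the 5 members, Kat6a and Dlx5, up to 4 called palate genes per direction and comparison, the 4 genes most like each member, and the most abundant marker of a list. Pdgfra falls outside that rule and was named after its value was seen. Deviations from the group mean in wild type and Kat6a heterozygous libraries with the same number correlated at 0.183 to 0.661, all 4 above 0.1. The highest value was that of replicate 2, neuron-rich in both groups, and their replicate 4 libraries lie in different batches. Kat6a homozygous libraries gave 0.095 to 0.569 with wild type. The labels do not say what a replicate number stands for, and these correlations do not settle whether the numbers pair libraries.

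Alternatives were DESeq2 1.42.0, voom with quality weights of limma 3.58.1, RLE scaling, no filter, 1 CPM or more in 12 libraries, omission of batch, batch 2 alone, only the groups compared, a neuron and glia score as covariate, a replicate block and leaving out each library. Removal of neuron-rich libraries and the comparison within batch 1 were chosen after seeing the data.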

Additional observations from a re-analysis of the deposited data

Results flagged for a closer look

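Among the 30 sets of 4 libraries formed by 5 genes and 6 groups, 2 held a library far from the other 3, by Dixon's ratio of the gap to the range at its 95% critical value. Chance gives about 1 in 20. Shox2 in wild type replicate 2 stood at 5.15 CPM, where the other wild type libraries held 1.15 to 1.82 CPM (ratio 0.833). That library also held the highest neuron and glia score of its group, 1.90. Tbx22 in Kat6a homozygous replicate 2 stood at 2.29 CPM, where the others held 7.92 to 8.45 CPM (ratio 0.914). The same library had the highest neuron and glia score of its group, 1.44, and the lowest Osr1, Osr2 and Sim2 levels among the Kat6a homozygous libraries.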

How the results depend on the processing

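With 4 libraries per group, facility partly tied to genotype and few reads for Osr2 and Shox2, small changes could not be resolved. No setting changed the sign of any of the 5 genes in the Kat6a homozygous comparison. Nothing is read from this, since that comparison helped to choose the genes and the settings refit the same libraries. The cause of the changes below was not tested. Genes called in that comparison numbered 98 in batch 2 alone, 64 with only the groups compared and 83 without neuron-rich libraries, against 222. For Kat6a heterozygous arches DESeq2 called 80 and batch 2 alone 1, against 0. For Dlx5 heterozygous arches DESeq2 called 31 and the fit without neuron-rich libraries 7, against 0. For double heterozygous arches, against 65, the counts were 185 with DESeq2, 98 with voom, 10 without the batch term, 9 in batch 2 alone, 10 with only the groups compared, 16 with the neuron covariate and 138 without neuron-rich libraries. For Dlx5 homozygous arches, against 8, they were 38 with DESeq2, 21 with the neuron covariate and 4 without neuron-rich libraries. For the non-additive part, against 1, batch 2 alone gave 6, and 0 came from only the groups compared, the replicate block and the removal of neuron-rich libraries. For the comparison within batch 1, against 154, voom called 77, and the neuron covariate and the fit on 24 libraries each called 0.

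Among members in double heterozygous arches, Sim2 passed the threshold with DESeq2 (1.11) and without neuron-rich libraries (1.21), Shox2 passed in the latter (1.68), and Osr2 changed sign without the batch term (-0.023). In Dlx5 homozygous arches Osr1 (-0.14) and Sim2 (-0.053) changed sign without the batch term. Within batch 1 the neuron covariate gave 0.10 for Osr2, 0.042 for Shox2, 0.036 for Sim2 and -1.59 for Tbx22, and the fit on 24 libraries -1.87 for Shox2 and -0.90 for Tbx22. The fits of Dlx5 homozygous arches on batch 2 alone or on only the groups compared could not be made, as no batch is shared.

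Leaving out each library in turn gave 122 (without Kat6a homozygous replicate 1) to 444 (without wild type replicate 1) called genes for Kat6a homozygous, 0 to 196 for Kat6a heterozygous, 0 to 1 for Dlx5 heterozygous, 1 (without double heterozygous replicate 1) to 169 (without wild type replicate 1) for double heterozygous, 0 to 16 for Dlx5 homozygous, 0 to 1 for the non-additive part and 50 to 184 within batch 1. Log2 differences ran from -0.015 to 0.45 for Osr2 and from -0.21 to 1.012 for Shox2 in Kat6a heterozygous arches, from -0.54 to 0.015 for Osr2 in Dlx5 homozygous arches, from -0.017 to 0.26 for Osr1 and -0.41 to 0.74 for Shox2 in the non-additive part, and from -1.12 to -0.82 for Tbx22 within batch 1.

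Replicate number as a block changed no call of a member. With it, Shox2 stood at 1.55 (adjusted p = 0.103, edgeR) and Sim2 at 1.24 (adjusted p = 0.112, edgeR) in double heterozygous arches.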
